A study of Mus musculus with 10 samples.

Results

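The joining genes of the *Igk* locus, IGKJ1 to IGKJ5, were followed through rearrangements amplified from genomic DNA of mouse peritoneal B cells. A clonotype, here 1 row of a deposited table with its V gene, J gene and CDR3 amino acid sequence, was kept when it named exactly 1 of these 5 genes. This held for 43649 of 44103 clonotypes in 6 *Igk* libraries, out of 10 libraries in the series. IGKJ5 carried 21651 of them, IGKJ1 carried 10836, IGKJ2 carried 10507, IGKJ4 carried 527 and IGKJ3 carried 128.

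All mice were C57BL/6 and 6 to 8 weeks old, and all cells were sorted from the peritoneal cavity. The groups were wild-type (WT) B-1a cells, B-1a cells of Igll1 knockout (Igll1-/-) mice and WT B-2 cells, with 2 libraries in each, and there was no Igll1-/- B-2 group. *Igll1* encodes a part of the surrogate light chain (SLC), and its knockout could not be checked here because the libraries hold *Igk* joins only. The sort could not be checked against marker genes, which this assay does not read. The labels number the replicates without saying that they are separate animals, so p-values measure the spread between these samples, which may be technical. The paper counts 2 independent experiments for its comparison of *Igk* V gene use.

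During light chain assembly a V gene is cut and joined to 1 of the J genes that lie in the order IGKJ1 to IGKJ5 ahead of the constant region. In receptor editing, a cell whose receptor binds self joins a more upstream V gene to a more downstream J gene, which removes or displaces the first join, and use of IGKJ4 and IGKJ5 is therefore read as a sign of repeated rearrangement. IGKJ3 of the mouse is not functional. The assay counts joined DNA, so joins on silent alleles are counted too.

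The last residues of the CDR3 are encoded largely by the J gene. The productive clonotype with the most reads on each J gene is shown for this reason, in single-letter amino acids from N to C terminus.
IGKV1-110 with IGKJ1: SQSTHVPWT
IGKV14-126 with IGKJ2: LQHGESPYT
IGKV4-91 with IGKJ3: QQGSSIPLT
IGKV1-110 with IGKJ4: SQSTHVPFT
IGKV4-91 with IGKJ5: QQGSSIPLT
In the same V gene, the IGKJ1 and IGKJ4 forms of IGKV1-110 differed only in the residue before the final threonine. The IGKJ3 and IGKJ5 forms of IGKV4-91 were the same peptide.

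The 6 libraries held between 5638 and 8563 clonotypes on a single J gene and between 214000 and 288396 reads in all. Clonotypes seen in 1 read made up 57.5% to 59.1% of each library. Within a V-J pair, clonotypes at most 1 residue from one with 10 times the reads or more were merged as a check. This removed 51.5% of all clonotypes and left 21148. Shares below count unmerged clonotypes unless merging is named, so near-copies of large clonotypes weigh in them. There were no molecular barcodes, so a read count mixes cells with amplification, and 95% Wilson intervals cover counting error only. They reached at most 1.13 points to either side for IGKJ1, 1.05 points for IGKJ2, 0.337 points for IGKJ4 and 1.30 points for IGKJ5. The WT B-2 libraries differed from each other in J use by no more than sampling noise (chi-square 6.13, 4 degrees of freedom, p = 0.190) but not in their V-J pairs (p = 0.0417), and were kept as separate samples. Across J genes the replicates of WT B-1a (chi-square 26.4) and of Igll1-/- B-1a (chi-square 33.1) differed by more than counting error. So did their V-J pairs, with chi-square 556 (209 degrees of freedom) in WT B-1a and 1143 (183 degrees of freedom) in Igll1-/- B-1a. In WT B-2 it was 281 (242 degrees of freedom).

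IGKJ5 was the most used J gene in every library. Its share of clonotypes was 52.1% and 52.2% in WT B-1a, 52.3% and 48.3% in Igll1-/- B-1a, and 47.8% and 46.6% in WT B-2. Both WT B-1a libraries and both Igll1-/- libraries lay above both WT B-2 libraries. The group means were 52.1% ± 0.0729, 50.3% ± 2.80 and 47.2% ± 0.848 (SD, n = 2).

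IGKJ1, the J gene nearest to the V genes, differed between the B-1a groups by more points than any other J gene. It held 22.9% and 19.99% of the clonotypes in WT B-1a, 25.2% and 28.8% in Igll1-/- B-1a, and 25.1% and 26.7% in WT B-2. Its WT B-1a values were below the 4 others. IGKJ2 held 23.6% and 26.3% in WT B-1a, 20.4% and 21.4% in Igll1-/- B-1a, and 25.9% and 25.4% in WT B-2, so that the Igll1-/- values were the lowest of all.

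IGKJ4, the other functional downstream gene, was rarely assigned. The J primers are not described in the sources used here, and their part in this low share was not tested. The IGKJ4 share was 1.20% and 1.16% in WT B-1a, 1.68% and 1.25% in Igll1-/- B-1a, and 1.07% and 1.03% in WT B-2. IGKJ3 stayed between 0.224% and 0.461% of clonotypes. Of the IGKJ3 clonotypes, 81.2% to 100% in a library had the same V gene and CDR3 on another J gene with at least 10 times the reads, and this other gene was nearly always IGKJ5. The same held for 14.7% to 33.8% of IGKJ4 clonotypes, and for 2.48% to 4.41% of those on IGKJ5.

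**Figure D1:**
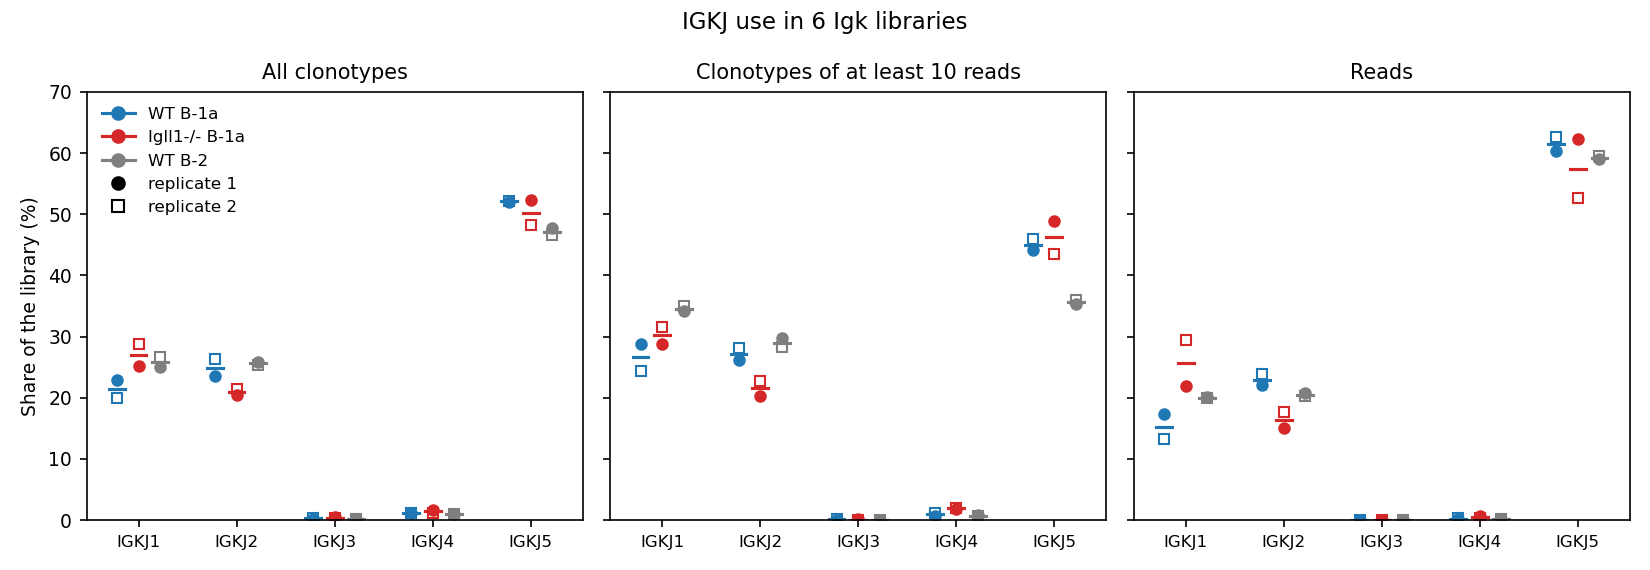
Share of each IGKJ gene in percent, by group, for all clonotypes, for clonotypes of at least 10 reads, and for reads. Points are libraries (filled circle replicate 1, open square replicate 2) and bars are the mean of 2 libraries. Among all clonotypes, IGKJ5 is the most used gene in all 6 libraries, at 46.6% to 52.3%, and IGKJ2 is lowest in Igll1-/- B-1a at 20.4% and 21.4%.

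The question behind the first comparison is whether B-1a cells made without SLC use the same J genes as those made with it. In Igll1-/- B-1a cells, IGKJ1 rose against WT B-1a by 0.33 on the log2 scale (SE 0.09, adjusted p = 0.0111, edgeR quasi-likelihood test). IGKJ2 fell by 0.25 (SE 0.09, adjusted p = 0.0330). These were 2 of 5 genes tested, or 40%. IGKJ5 differed by -0.05 (adjusted p = 0.548), IGKJ4 by 0.30 (adjusted p = 0.209) and IGKJ3 by 0.37 (adjusted p = 0.362), none of which passed. By reads the Igll1-/- libraries held 21.9% and 29.4% on IGKJ1 against 17.4% and 13.2% in WT B-1a, and 15.0% and 17.7% on IGKJ2 against 22.0% and 23.9%. The V gene IGKV3-7 gave 117 of the 1418 and 254 of the 1978 IGKJ1 clonotypes in Igll1-/- B-1a. In WT B-1a it gave 44 of 1641 and 28 of 1377. It gave 9091 and 23457 of the IGKJ1 reads in Igll1-/- B-1a, against 1254 and 651 in WT B-1a. IGKJ1 was not tested without IGKV3-7.

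Both calls depended on single libraries. The IGKJ1 call was lost without the second Igll1-/- library (0.23, adjusted p = 0.0991), without the second WT B-1a library (0.24, adjusted p = 0.224) and without either WT B-2 library (adjusted p = 0.0880 by edgeR), and the IGKJ2 call kept an adjusted p under 0.05 only without the first WT B-1a library (0.0219). Without IGKV4-91 and IGKV14-126, V genes known from B-1a light chains, IGKJ1 stood at 0.29 (adjusted p = 0.0392) and IGKJ2 at -0.13 (adjusted p = 0.317).

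Against WT B-2, Igll1-/- B-1a cells showed IGKJ2 lower by edgeR at -0.29 (SE 0.09, adjusted p = 0.0253), which was 1 of 5 genes, or 20%. IGKJ4 stood at 0.46 (SE 0.18, adjusted p = 0.0531), IGKJ5 at 0.09 (adjusted p = 0.373) and IGKJ1 at 0.06 (adjusted p = 0.4996). The IGKJ2 call was lost without the first Igll1-/- library (adjusted p = 0.135) and without either WT B-2 library (adjusted p = 0.184 and 0.264 by edgeR). WT B-1a cells against WT B-2 cells showed IGKJ1 lower at -0.27 (SE 0.09, adjusted p = 0.0419), again 1 of 5 genes, or 20%, and IGKJ5 at 0.14 (SE 0.08, adjusted p = 0.274). That IGKJ1 call kept an adjusted p under 0.05 only without the first WT B-1a library (0.0249 by edgeR).

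The downstream share, that is IGKJ4 and IGKJ5 as a percent of IGKJ1, IGKJ2, IGKJ4 and IGKJ5, summarises the use of downstream J genes. It rests almost wholly on IGKJ5, since IGKJ4 held only 1.03% to 1.68% of clonotypes. The part of the J primers in it, and its relation to repeated rearrangement, were not tested. The downstream share was 53.4% and 53.5% in WT B-1a, 54.2% and 49.7% in Igll1-/- B-1a, and 49.0% and 47.7% in WT B-2. Igll1-/- B-1a lay above and below WT B-1a, and every B-1a library lay above both WT B-2 libraries. The differences were -1.51 points for Igll1-/- against WT B-1a (exact permutation p = 1), 3.61 for Igll1-/- B-1a against WT B-2 (exact permutation p = 0.333) and 5.12 for WT B-1a against WT B-2 (exact permutation p = 0.333). With 2 libraries a group, 0.333 is the smallest p this two-sided test allows. Between the B-1a groups the sign depended on what was counted. The difference was -5.78 points for IGKJ5 against IGKJ1 alone, where the groups did not overlap, and 2.12 points among clonotypes of at least 10 reads, where they did.

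Weighted by reads, the gap between B-1a and B-2 cells was not wider, but it was wider among clonotypes of at least 10 reads than among those of 1 read. Among those of at least 10 reads, the downstream share was 44.9% and 47.3% in WT B-1a, 50.9% and 45.6% in Igll1-/- B-1a, and 36.1% and 36.7% in WT B-2. Among those of 1 read it was 54.0% and 52.8%, 51.5% and 47.7%, and 49.9% and 47.7%. IGKJ5 alone held 44.2% and 46.0% of the clonotypes of at least 10 reads in WT B-1a, 49.0% and 43.6% in Igll1-/- B-1a, and 35.3% and 36.0% in WT B-2.

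At this minimum, IGKJ5 was higher than in WT B-2 in both WT B-1a (0.34, SE 0.07, adjusted p = 0.000475) and Igll1-/- B-1a (0.37, SE 0.07, adjusted p = 0.00046) by edgeR. IGKJ1 was lower in WT B-1a (-0.38, adjusted p = 0.000475) and in Igll1-/- B-1a (-0.19, adjusted p = 0.0345). IGKJ4 was higher in Igll1-/- B-1a at 1.44 (SE 0.40, adjusted p = 0.00409), on 15 and 18 clonotypes in its libraries against 11 and 9 in WT B-2. Between the B-1a groups IGKJ5 stood at 0.04 (adjusted p = 0.626) and IGKJ2 at -0.33 (adjusted p = 0.0184). Weighted by reads, the downstream share was 60.6% and 62.9% in WT B-1a, 63.1% and 53.0% in Igll1-/- B-1a, and 59.2% and 59.6% in WT B-2, so that the second Igll1-/- library was the lowest. The differences from WT B-2 were then 2.35 points for WT B-1a and -1.39 points for Igll1-/- B-1a. Among clonotypes of at least 10 reads they were 9.76 and 11.9 points.

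**Figure D2:**
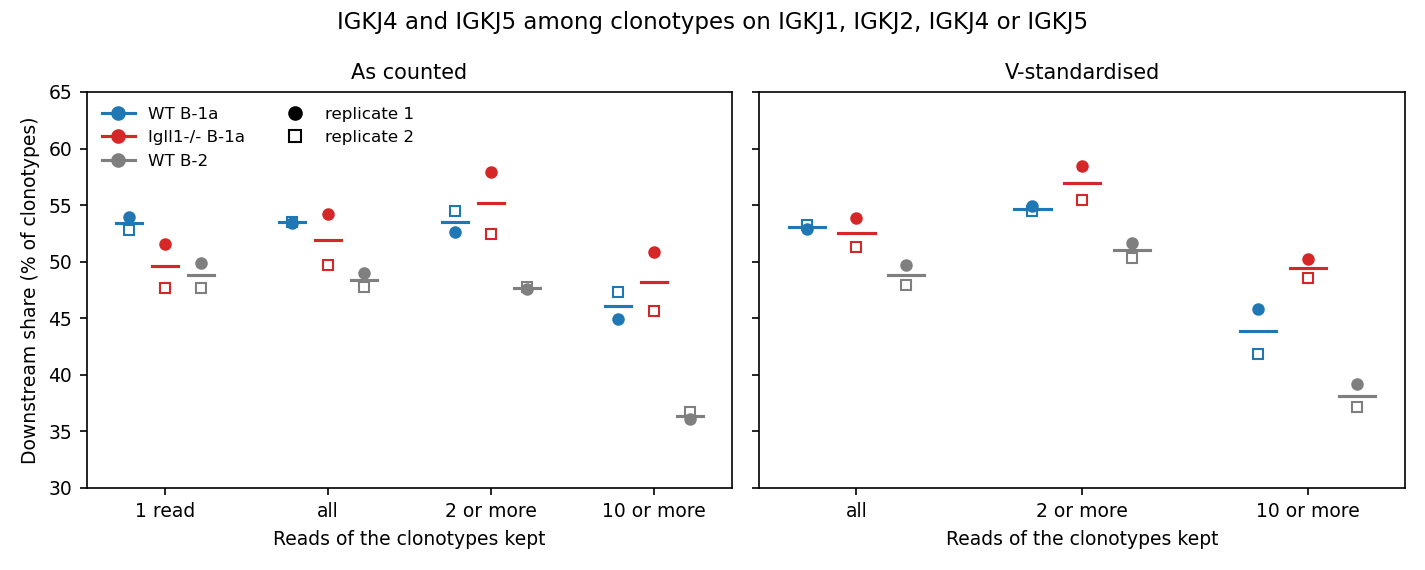
Downstream share (IGKJ4 and IGKJ5 as percent of IGKJ1, IGKJ2, IGKJ4 and IGKJ5), as counted (left) and standardised by V gene (right). The left panel gives clonotypes of 1 read, all clonotypes, and those of at least 2 and at least 10 reads. The right panel gives all clonotypes and those of at least 2 and at least 10 reads. Points are libraries (filled circle replicate 1, open square replicate 2) and bars the mean of 2. As counted, at 10 reads or more, the WT B-2 libraries sit at 36.1% and 36.7%, below the 4 B-1a libraries at 44.9% to 50.9%.

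J use differed between V genes, and the groups differ in the V genes they use, so the downstream share was also computed with the same V mixture in every library. Over the 51 V genes with at least 20 clonotypes in each library, this standardised share was 52.9% and 53.2% in WT B-1a, 53.9% and 51.3% in Igll1-/- B-1a, and 49.7% and 48.0% in WT B-2. The difference of Igll1-/- from WT B-1a was -0.51 points, against -1.24 points before standardising over those V genes. The difference of WT B-1a from WT B-2 was 4.23 points, against 4.47 before. For IGKJ1, standardising took the difference between Igll1-/- and WT B-1a from 5.36 to 3.00 points, and the libraries of these groups then overlapped. For IGKJ2 it went from -4.16 to -2.52 points without overlap.

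Standardised shares among clonotypes of at least 10 reads, over the 13 V genes with at least 10 of these in each library, were 45.8% and 41.9% in WT B-1a, 50.3% and 48.5% in Igll1-/- B-1a, and 39.2% and 37.1% in WT B-2. Both Igll1-/- libraries lay above all others. The differences were 5.55 points between the B-1a groups, 11.2 points between Igll1-/- B-1a and WT B-2, and 5.69 points between WT B-1a and WT B-2, and this minimum was added after the data were seen.

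Within V genes, 150 V-J pairs of 51 V genes had enough clonotypes to be tested for a change of J choice. Between Igll1-/- and WT B-1a 4 of them passed at an adjusted p under 0.05, or 2.67%, and they belonged to 2 V genes. Between WT B-1a and WT B-2 there was 1, or 0.667%. Between Igll1-/- B-1a and WT B-2 there was 0, or 0%, by edgeR, with 27 pairs at an unadjusted p under 0.05 and 0 by DESeq2.

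By clonotypes, IGKV14-126 was mostly on IGKJ2 in WT B-1a and mostly on IGKJ5 in Igll1-/- B-1a. IGKJ2 made 58.4% and 55.4% of its clonotypes in WT B-1a, 25.6% and 21.6% in Igll1-/- B-1a, and 39.2% and 33.9% in WT B-2. IGKJ5 made 18.1% and 23.4%, 56.4% and 50.98%, and 42.7% and 48.8%. The groups did not overlap for either J gene, and the WT B-2 values lay between those of the B-1a groups. By edgeR, Igll1-/- against WT B-1a gave -1.28 for IGKJ2 (SE 0.23, adjusted p = 0.0118) and 1.36 for IGKJ5 (SE 0.25, adjusted p = 0.0118), and WT B-1a against WT B-2 gave -1.13 for IGKJ5 (SE 0.20, adjusted p = 0.0294). The gene had 353 and 368 clonotypes in WT B-1a but only 39 and 51 in Igll1-/- B-1a, and 143 and 127 in WT B-2.

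A single peptide held most of the IGKJ2 reads of IGKV14-126. LQHGESPYT had 18300 and 17325 reads in WT B-1a, which was 30.3% and 29.7% of all IGKJ2 reads there. It had 123 and 138 reads in Igll1-/- B-1a (0.383% and 0.285%) and 1025 and 914 in WT B-2 (1.72% and 1.56%). The same V gene with IGKJ5 was read mostly as
IGKV14-126 with IGKJ5: LQHGESPLT
which had 1126 and 1930 reads in WT B-1a, 297 and 212 in Igll1-/- B-1a, and 1265 and 916 in WT B-2. The IGKJ2 form thus outnumbered the IGKJ5 form in both WT B-1a libraries, and the reverse held in both Igll1-/- libraries. In the second Igll1-/- library LQHGESPWT, read mostly on IGKJ1, had more reads than either form, at 261. By reads IGKJ5 made 60.9% of IGKV14-126 in the first Igll1-/- library but 34.3% in the second. In the second WT B-2 library the row of LQHGESPYT is marked unproductive, although its CDR3 holds no stop codon.

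IGKV3-7 differed the other way along the J genes in Igll1-/- B-1a. IGKJ1 made 24.6% and 24.3% of its clonotypes in WT B-1a, 53.4% and 66.0% in Igll1-/- B-1a, and 32.4% and 33.3% in WT B-2. IGKJ5 made 53.6% and 47.8%, 27.9% and 10.4%, and 36.2% and 36.9%. Against WT B-1a, edgeR gave 1.30 for IGKJ1 (SE 0.18, adjusted p = 0.00309) and -1.52 for IGKJ5 (SE 0.35, adjusted p = 0.0464). Against WT B-2 the IGKJ1 pair stood at 0.88 (SE 0.19) with an adjusted p of 0.0893 by edgeR.

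In each Igll1-/- library 1 clonotype held most of the IGKV3-7 reads on IGKJ1, and it was not the same one. They are shown beside the leading IGKJ5 form.
IGKV3-7 with IGKJ1, the first Igll1-/- library: QHSWEIPRT
IGKV3-7 with IGKJ1, the second Igll1-/- library: QHSWEIPWT
IGKV3-7 with IGKJ5: QHSWEIPLT
QHSWEIPRT had 7914 reads, or 87.1% of the reads of the pair in the first library, and QHSWEIPWT had 20562 reads, or 87.7%, in the second. QHSWEIPLT led the IGKJ5 pair in 5 of 6 libraries and the second Igll1-/- library was the exception. When near-identical clonotypes (1 residue apart, and 10 times fewer reads or less) were merged into the larger one, the IGKV3-7 calls stood at 1.72 (adjusted p = 0.0119) and -1.54 (adjusted p = 0.0320) by edgeR. IGKV14-126 had only 16 merged clonotypes in the first Igll1-/- library, under the minimum of 20, and its pairs were not tested on merged counts.

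**Figure D3:**
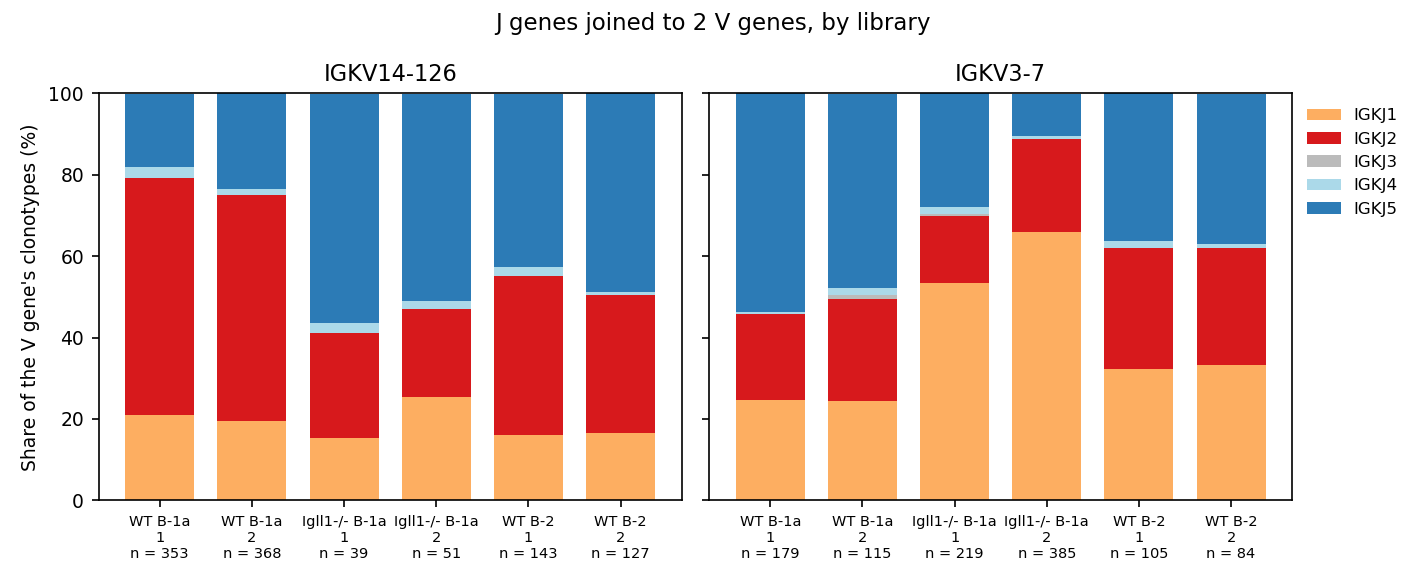
J genes joined to IGKV14-126 and IGKV3-7, as percent of the clonotypes of each V gene, by library. Each stacked bar is 1 library split over the IGKJ genes, with its number of clonotypes below. IGKV14-126 is on IGKJ2 at 58.4% and 55.4% in WT B-1a and at 25.6% and 21.6% in Igll1-/- B-1a. IGKV3-7 is on IGKJ1 at 53.4% and 66.0% in Igll1-/- B-1a.

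These calls also depended on the libraries. Between the B-1a groups 9 pairs passed without the first Igll1-/- library, 7 without the second and 0 without any 1 of the WT libraries. With DESeq2 the IGKV14-126 pair on IGKJ2 had an adjusted p of 0.140.

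Over all 51 tested V genes, IGKV14-126 and IGKV3-7 included, pairs moved in both directions. Between Igll1-/- and WT B-1a 23 pairs had an unadjusted p under 0.05 by edgeR. The median log2 difference over the pairs of a J gene, Igll1-/- against WT B-1a, was 0.15 for 48 IGKJ1 pairs, -0.19 for 51 IGKJ2 pairs and -0.06 for 51 IGKJ5 pairs, with 33, 20 and 22 pairs above 0. Igll1-/- B-1a against WT B-2 gave -0.09, -0.32 and 0.11, with 19, 14 and 35 pairs above 0. WT B-1a against WT B-2 gave -0.17, -0.14 and 0.15, with 14, 18 and 41 pairs above 0. IGKJ5 was thus above 0 in most V genes in both comparisons with WT B-2, which share the WT B-2 libraries, and IGKJ2 was below 0 in most V genes in all 3.

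The V genes with the most clonotypes differed from each other in the J genes they were joined to. IGKV4-91, a B-1a V gene for which primers were added, was joined to IGKJ5 in 59.7% and 63.7% of its clonotypes in WT B-1a, 45.9% and 68.0% in Igll1-/- B-1a, and 64.5% and 56.2% in WT B-2. It was on IGKJ1 in only 4.46% to 9.13%. Its peptide QQGSSIPLT had 19597 and 16055 reads on IGKJ5 in WT B-1a, 1374 and 6847 in Igll1-/- B-1a, and 2445 and 1873 in WT B-2, so the WT B-1a libraries held the most. That was 11.8% and 10.5%, 1.03% and 4.75%, and 1.44% and 1.09% of all IGKJ5 reads.

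IGKV10-96 was at the other end, with IGKJ5 in 26.8% and 34.7% of its clonotypes in WT B-1a, 20.6% and 20.6% in Igll1-/- B-1a, and 26.1% and 27.8% in WT B-2. IGKV1-110 was on IGKJ5 in 43.4% and 40.0%, 32.5% and 32.4%, and 41.8% and 38.2%, and on IGKJ1 in 33.2% and 30.2%, 36.8% and 49.2%, and 29.7% and 32.2%. Its peptide SQSTHVPWT on IGKJ1 had 2199 and 2092 reads in WT B-1a, 4817 and 12088 in Igll1-/- B-1a, and 1963 and 1859 in WT B-2. In these V genes the Igll1-/- libraries were the lowest for IGKJ5, and no pair of either passed the test.

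The remaining V genes of the 10 with the most clonotypes did not share a direction. IGKJ5 made 53.5% and 50.6% of IGKV8-30 in WT B-1a, 75.9% and 55.9% in Igll1-/- B-1a, and 52.5% and 47.3% in WT B-2. It made 42.2% and 52.2%, 51.2% and 52.4%, and 44.6% and 39.0% of IGKV15-103, and 54.2% and 43.1%, 42.5% and 61.7%, and 49.6% and 49.6% of IGKV14-111. IGKV8-30 was highest in both Igll1-/- libraries, which differed from each other by more than any other replicates of this gene, and the groups overlapped for IGKV14-111. In the first Igll1-/- library 1 unproductive clonotype of IGKV8-30 with IGKJ5 had 2551 reads. The share of IGKV8-30 counts unproductive rows and unmerged clonotypes, and their part in it was not tested. IGKV8-24 was at 61.8% and 58.2% in WT B-1a, above the 4 other libraries at 50.8% to 56.1%. IGKV1-117, at 33.1% to 45.1%, overlapped between groups. No pair of these V genes passed the test.

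Over all 51 V genes, the IGKJ5 share of a V gene ran from 20.7% (IGKV14-126) to 80.9% (IGKV8-28) in WT B-1a, from 18.1% (IGKV3-2) to 85.5% (IGKV4-73) in Igll1-/- B-1a, and from 24.2% (IGKV10-95) to 64.2% (IGKV5-48) in WT B-2. The medians were 51.04%, 51.3% and 47.2%. In WT B-1a against WT B-2, both libraries of the first group were above both of the second for IGKJ5 in 21 V genes and below them in 3. For IGKJ1 they were above in 1 and below in 20, and for IGKJ2 above in 6 and below in 19. In this comparison 0.667% of pairs passed the test. In Igll1-/- B-1a against WT B-2 the numbers above and below were 17 and 6 for IGKJ5, 8 and 15 for IGKJ1, and 3 and 20 for IGKJ2, where 0% of pairs passed. In Igll1-/- against WT B-1a they were 9 and 12 for IGKJ5, 11 and 7 for IGKJ1, and 6 and 12 for IGKJ2, where 2.67% passed. At 2 libraries a group, a V gene with no group difference separates fully, above or below, with a probability of 0.333. The counts of the 51 V genes were not tested against this.

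**Figure D4:**
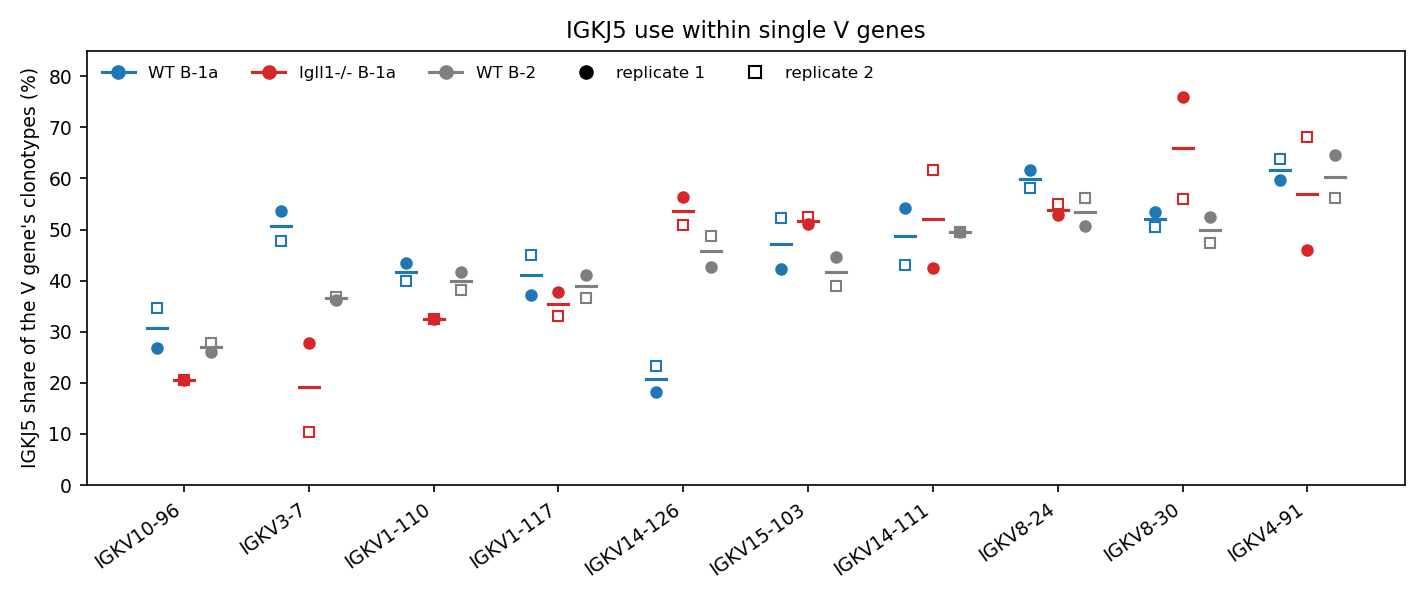
IGKJ5 share of the clonotypes of each named V gene in percent, by group. Points are libraries (filled circle replicate 1, open square replicate 2); IGKV10-96 lies at 20.6% to 34.7% in all groups, IGKV4-91 at 45.9% to 68.0%, and IGKV14-126 at 18.1% and 23.4% in WT B-1a against 56.4% and 50.98% in Igll1-/- B-1a.

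Position along the locus is the other side of editing, since a later join takes a V gene farther from the J genes. V genes were split by the number in their name, which counts away from the J genes, into proximal (up to 50), middle (51 to 100) and distal (above 100), and 100 of 103 V genes could be placed in the RefSeq gene table, in the same order. The downstream share of proximal V genes was 57.5% and 56.3% in WT B-1a, 54.8% and 44.5% in Igll1-/- B-1a, and 50.03% and 49.0% in WT B-2. For distal V genes it was 39.8% and 44.3%, 45.0% and 43.4%, and 45.0% and 44.6%. Distal V genes were lower in 6 of 6 libraries, with a difference that ran from -17.7 points in the first WT B-1a library to -1.08 points in the second Igll1-/- library. That Igll1-/- library had 2449 proximal clonotypes. Its proximal V gene IGKV3-7 had 385 clonotypes, of which 40 were on IGKJ5. The difference was not computed without IGKV3-7.

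The mean difference, distal minus proximal, was -8.35 ± 6.05 points (SD, n = 6, two-sided exact sign-flip permutation p = 0.03125, the smallest that 6 libraries allow). The libraries draw on the same V genes, so this p cannot tell position from other traits of these V genes. The mean difference was -7.07 points without IGKV4-91 and IGKV14-126 and -8.67 points in productive clonotypes, lower in 6 of 6 libraries each time. On merged clonotypes it was -5.81 points, on clonotypes of at least 10 reads -5.55 points and with IGKJ5 against IGKJ1 alone -7.41 points, and those did not pass.

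Middle V genes stood apart between the cell types. Their downstream share was 59.7% and 58.7% in WT B-1a, 59.9% and 61.9% in Igll1-/- B-1a, and 50.1% and 47.1% in WT B-2. All 4 B-1a libraries lay above both WT B-2 libraries by more than the spread within either group, while distal V genes gave no such separation. This is a description with no test. Across the V genes, the correlation of position with downstream share was -0.23 in WT B-1a, 0.04 in Igll1-/- B-1a and -0.06 in WT B-2 (Pearson, 51 V genes of the same libraries, given as a description).

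Joins out of frame or with a stop codon make no light chain, and the tables mark such rows as unproductive, by a rule not given in the sources used here. Rows so marked were 11.5% to 13.7% of the clonotypes and 1.37% to 4.68% of the reads of a library. Their downstream share was 53.3% and 62.2% in WT B-1a, 65.3% and 48.8% in Igll1-/- B-1a, and 53.8% and 51.7% in WT B-2, against 53.4% and 52.2%, 52.5% and 49.8%, and 48.3% and 47.2% in productive clonotypes. Productive clonotypes were lower in 4 of 6 libraries, and the mean difference of -5.27 ± 5.46 points (SD, n = 6, exact permutation p = 0.125) did not pass.

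IGKJ5 made 49.1% of productive and 55.0% of unproductive clonotypes on average over the 6 libraries, a difference of -5.90 points (exact permutation p = 0.0938, adjusted over the 5 J genes 0.156). IGKJ2 stood at 3.39 points and IGKJ1 at 1.76 points the other way. Only 0 or 1 unproductive clonotypes of a library were on IGKJ3, too few to compare. The difference did not separate Igll1-/- from WT B-1a (-1.01 points, exact permutation p = 1).

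Not every row marked unproductive held a stop codon in its CDR3. Between 51.8% and 79.4% did, and no productive row did. Of the rows of IGKV9-128, 94.9% to 99.3% were marked unproductive. By reads, a single clonotype of IGKV9-128 with IGKJ1 made 43.3% of the unproductive reads of the first WT B-1a library, and 1 of IGKV9-128 with IGKJ5 made 60.9% of those of the second. In the first Igll1-/- library 1 clonotype of IGKV8-30 with IGKJ5 made 42.0%. Without IGKV9-128 the mean difference was -5.65 points (exact permutation p = 0.0625), with stop-codon rows only it was -6.72 points (exact permutation p = 0.0625), and on merged clonotypes it was -6.93 points and lower in 6 of 6 libraries (exact permutation p = 0.03125).

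**Figure D5:**
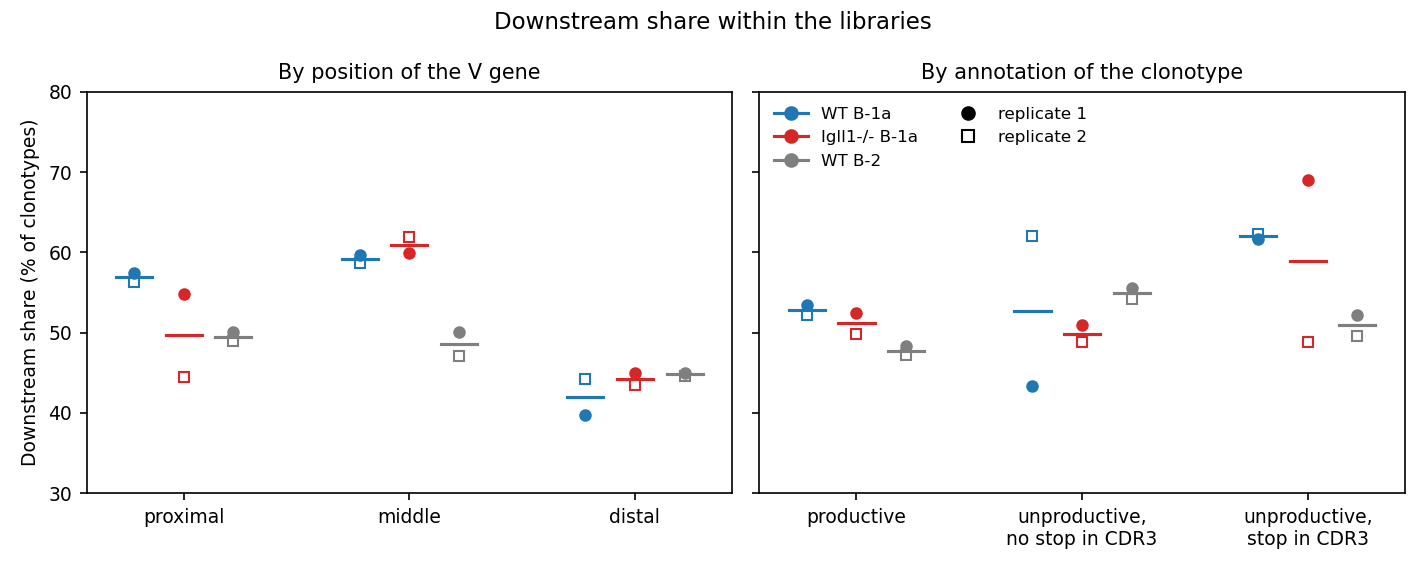
Downstream share in percent by position of the V gene (proximal, middle, distal) and by annotation (productive, unproductive without a stop codon in the CDR3, unproductive with one). Points are libraries (filled circle replicate 1, open square replicate 2); distal V genes sit at 39.8% to 45.0% in every group, while middle V genes sit at 58.7% to 61.9% in B-1a cells and at 50.1% and 47.1% in WT B-2.

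The J genes also differed in depth and in the joins they made. Reads per clonotype were 41.5 to 45.2 for IGKJ5, 26.9 to 35.8 for IGKJ2, 23.5 to 40.7 for IGKJ1, 4.41 to 14.9 for IGKJ4 and 1.43 to 2.65 for IGKJ3. A CDR3 of 9 residues was found in 66.9% to 80.4% of IGKJ1, 70.7% to 83.9% of IGKJ2 and 72.7% to 79.0% of IGKJ5 clonotypes. The share was lower on IGKJ1 than on IGKJ2 within each of the 6 libraries, and in WT B-1a it was 72.5% and 74.3% on IGKJ1 against 81.8% and 79.4% on IGKJ2. This is a description with no test.

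The final pair of residues followed the J gene for IGKJ1, IGKJ2, IGKJ4 and IGKJ5. Among productive clonotypes, tyrosine and threonine ended 57.1% to 62.0% of those on IGKJ2, phenylalanine and threonine 67.1% to 78.1% on IGKJ4, and leucine and threonine 62.3% to 66.0% on IGKJ5. On IGKJ1, tryptophan and threonine ended 42.8% to 49.6%, and arginine and threonine 18.2% to 25.6%. IGKJ3, with 16 to 26 clonotypes a library, shared the main ending of IGKJ5, since leucine and threonine ended 60% to 84.6% of its productive clonotypes. Peptides with the phenylalanine ending were 2.70% to 4.16% of all productive clonotypes, but only 12.5% to 32.9% of their reads were assigned to IGKJ4.

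SQSTHVPFT, the IGKJ4 form of IGKV1-110, had 31 and 57 reads in WT B-1a, 553 and 19 in Igll1-/- B-1a, and 55 and 33 in WT B-2. The 553 reads made 39.0% of all IGKJ4 reads of the first Igll1-/- library.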

How the data were processed

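Rearranged *Igk* was amplified by the authors from lysed sorted cells with V and J primers, products of 100 to 280 bp were selected and sequenced, and reads were assigned with IMGT/HighV-QUEST (version not given in the sources used here). The deposited tables give, per clonotype, a count of reads, the V and J gene, the CDR3, the frame and a percent identity to the germline V gene. They name no genome build, so no coordinates are given. They hold no columns of the authors' own comparisons.

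From these counts, clonotypes were counted once per row and J gene (696 rows, or 1.59%, repeat a V gene, J gene and CDR3 with another identity), and rows with several or no J gene (0.965% to 1.11% of a library) were left out. The 4 *Igh* libraries were not used. Counts per J gene were tested with edgeR 4.0.16 (glmQLFit and glmQLFTest, R 4.3.3) over the 3 groups with the library total as offset, and V-J pairs (at least 10 clonotypes in at least 2 libraries, V genes with at least 20 in each library) with the V total as offset, with Benjamini-Hochberg adjustment over all genes or pairs of a comparison at 0.05. All 6 libraries share 1 estimate of the spread. Percent shares were compared with exact permutation or sign-flip tests (SciPy 1.17.1, Python 3.11.15). The standardised share gives every library the V mixture averaged over the 6 libraries.

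The scripts were tested on simulated data, for Igll1-/- against WT B-1a. With no change simulated, the test of the 5 J genes still made a call in 10% of runs. It called IGKJ1 in 99% of runs when that gene was raised 1.5-fold. For V-J pairs, 53.2% of 2-fold and 89.2% of 4-fold changes were recovered. Named were all 5 J genes, the 10 V genes with the most clonotypes (IGKV4-91 and IGKV14-126 are among them), V-J pairs past the threshold and the top productive clonotype of each J gene. Other V genes and peptides were named after their values were seen. Minimums of 2 and 10 reads for the J gene tests and the downstream share were planned. The stop codon and IGKV9-128 checks, the distal and proximal comparison in productive clonotypes, and read minimums for the standardised share were added after the data were seen. Genes, lists and splits were chosen with earlier results of these data known. DESeq2 1.42.0 was an alternative to edgeR.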

Additional observations from a re-analysis of the deposited data

How the results depend on the processing

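The numbers of J genes past the threshold were sensitive to processing. For Igll1-/- against WT B-1a (2 in the report) the count was 1 with DESeq2, with clonotypes of at least 10 reads and without IGKV4-91 and IGKV14-126, and 0 with at least 2 reads, with reads and in unproductive clonotypes. Against WT B-2 (1 in the report), Igll1-/- B-1a gave 4 with at least 10 reads, 2 with rows of several J genes split and without clonotypes repeated on another J gene, and 0 in unproductive clonotypes. WT B-1a against WT B-2 (1) gave 2 with at least 10 reads and 0 with DESeq2, at least 2 reads, merging of near-identical clonotypes, reads, unproductive clonotypes, and without those V genes or repeated clonotypes. Leaving out 1 library gave 0 to 2, 0 to 4 and 0 to 1 J genes. V-J pairs of Igll1-/- against WT B-1a (4) numbered 1 with at least 2 reads, 2 merged, 2 with reads and 11 without the filter on pairs. Those against WT B-2 (0) numbered 2 with at least 2 reads, 1 with reads and 8 without the filter, and those of WT B-1a against WT B-2 (1) numbered 0 with at least 2 reads, merged or with DESeq2 and 2 in productive clonotypes. Without 1 library they numbered 0 to 9, 0 to 8 and 0 to 1. The downstream difference of Igll1-/- from WT B-1a turned to 1.63, 2.12 and 0.904 points with at least 2 reads, at least 10 reads and merging, and standardised by V to 2.24 and 5.55 at these minimums. It stayed negative at -5.78 for IGKJ5 against IGKJ1, -2.98 without IGKV4-91 and IGKV14-126, -3.74 by reads and -4.81 by reads standardised. From WT B-2 it turned to -1.39 by reads, and to -2.37 standardised. Without 1 library the differences lay between -3.77 and 0.742, 1.35 and 5.86, and 4.51 and 5.74 points, and standardised between -1.81 and 0.791, 2.41 and 5.02, and 3.35 and 5.11. Distal minus proximal was -14.6 by reads, -5.55 with at least 10 reads, -7.41 for IGKJ5 against IGKJ1 and -5.81 merged, none of which passed, and -9.80 to -6.48 without 1 library. Productive minus unproductive passed at -6.93 merged and lay between -6.53 and -3.76 without 1 library. Its difference between the B-1a groups turned to 7.91 merged, 1.39 without IGKV9-128 and 1.41 with stop-codon rows, and lay between -7.95 and 5.92 without 1 library. Among single genes on the log2 scale, IGKJ5 in Igll1-/- against WT B-1a turned to 0.0353, 0.0339, 0.0172 and 0.0729 (at least 10 reads, at least 2, merged, productive and merged) and lay between -0.110 and 0.00379 without 1 library. IGKJ1 in Igll1-/- B-1a against WT B-2 turned to -0.0272 with DESeq2, -0.0274 with TMM factors, and -0.193 and -0.0790 with at least 10 and 2 reads, and lay between -0.0409 and 0.153. IGKJ5 there was -0.0432 by reads. In WT B-1a against WT B-2, IGKJ1 was 0.0326 in unproductive clonotypes, IGKJ2 was 0.0337 merged, 0.00307 productive, 0.131 productive and merged, 0.16 by reads and between -0.122 and 0.0378 without 1 library, and IGKJ4 was -0.0121 productive and merged. The causes were not tested. The merged productive, repeated-clonotype, stop-codon, IGKV9-128 and standardised read-minimum settings, and distal minus proximal in productive clonotypes, were added after seeing the data. V genes joined by inversion were not separated, because the tables used here give no strand.

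The replicate numbers were not used to pair the libraries. Deviations of same-numbered libraries correlated at -0.10, -0.03 and -0.02 over 150 V-J pairs, which cannot show whether they were processed together. With the replicate block, 1, 0 and 0 J genes passed in place of 2, 1 and 1, and 4, 0 and 1 V-J pairs.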
